A study of Mus musculus with 2 samples.

Results

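The myosin microRNAs Mir208a, Mir208b and Mir499 are each encoded within an intron of a myosin heavy chain gene, and their reads were measured in the gastrocnemius, the large calf muscle, of mice. The 3 genes were taken by their GENCODE M21 names from the 2202 microRNA genes in the deposited counts, and all 3 were found. The material was RNA under 30 bases from adult male mice aged 8 to 10 months, of the strain labelled 5xFAD/CAST. 5xFAD is a transgenic line that overproduces amyloid in the brain, CAST denotes a strain derived from wild mice, and the labels do not state whether the sampled animals carried the transgene. All samples form 1 group with 2 libraries, numbered as biological replicates 1 and 2, which are separate tissue samples under a single donor record. Whether they came from separate animals is not stated, so the spread between them may be technical. The labels name no treatment and no second condition, so levels, ratios and the difference between the libraries are described.

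Myosin microRNAs lie in introns of genes for the motor proteins of striated muscle. Myh6 encodes the alpha myosin heavy chain of the adult mouse heart, Myh7 the slow or beta heavy chain of slow skeletal fibres and fetal mouse ventricle, and Myh7b a further slow-type myosin. In the mouse, Mir208a is known as a heart microRNA that regulates the expression of slow myosin genes in the heart. Mir208b and Mir499 have overlapping functions in mouse skeletal muscle, where they favour the slow fibre programme by repressing factors such as Sox6, Purb and Sp3. The gastrocnemius of the mouse is made mostly of fast fibres, with fewer slow fibres than the soleus beside it.

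The main mature arm of each gene is shown because its first bases decide which messages the microRNA can pair with. The capitals mark the seed, bases 2 to 8 from the 5′ end. The sequences are from RefSeq, on build GRCm38.p6, where all 3 genes were matched.
mmu-miR-208a-3p: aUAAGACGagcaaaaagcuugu
mmu-miR-208b-3p: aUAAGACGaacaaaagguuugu
mmu-miR-499-5p: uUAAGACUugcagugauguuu

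Mir208a and Mir208b shared the seed UAAGACG, and Mir499 had UAAGACU, which differs only in its last base. Bases 2 to 7, UAAGAC, were the same in all 3. Among the 1738 mature mouse sequences of the RefSeq table, these 3 alone had UAAGAC at bases 2 to 7, which is 0.173% of the table. No other mature sequence in that table had either of the 7-base seeds. The mature forms of Mir208a and Mir208b were both 22 bases long and identical at 19 positions. They differed by G10A, A16G and C18U, written with the Mir208a base first and the Mir208b base last and counted from the 5′ end. The mature form of Mir499 was 21 bases long and matched Mir208a at 12 and Mir208b at 10 of 21 positions.

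The hairpins show which stretch of each gene a counted read could come from. Here the capitals mark the main mature arm.
Mir208a: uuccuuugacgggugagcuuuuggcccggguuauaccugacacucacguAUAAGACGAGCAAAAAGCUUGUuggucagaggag
Mir208b: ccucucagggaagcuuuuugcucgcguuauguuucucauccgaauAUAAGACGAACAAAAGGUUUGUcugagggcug
Mir499: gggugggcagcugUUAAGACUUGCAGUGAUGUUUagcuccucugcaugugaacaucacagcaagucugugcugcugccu

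The main arm lies on the 3′ side of the hairpin in Mir208a and Mir208b and on the 5′ side in Mir499. The counts are per gene, so reads of the main arm and of the other arm were not separated. The longest run that Mir208a and Mir208b shared with any other microRNA hairpin was the 14 bases they shared with each other. For Mir499 the longest run was 13 bases, shared with Gm24462. Each mature sequence occurred in the transcripts of 1 annotated gene, its own. From the layout of the counts, a read that aligned at more than 1 place was taken to be assigned to none of them. No member had a stretch of 20 bases in common with a second microRNA gene, whereas 7 of the 8 other striated muscle microRNA genes described here did.

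Mir208a (ENSMUSG00000065432.1) lies at chr14:54949060-54949142 of mm10 on the minus strand, in intron 29 of the 39-exon transcripts of Myh6. Mir208b (ENSMUSG00000077928.1) lies at chr14:54975700-54975776 on the minus strand, in intron 31 of the 41-exon transcripts of Myh7. The hairpins are 26557 bases apart, since Myh6 and Myh7 are neighbours with the same orientation. Mir499 (ENSMUSG00000076312.1) lies at chr2:155622880-155622958 on the plus strand, in intron 19 of the 42-exon transcript of Myh7b. The introns are short, 542 bases in Myh6, 461 in Myh7 and 481 in Myh7b. None of the hairpins overlapped an annotated exon or a gene other than its host, so each is intronic in the annotation.

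**Figure D1:**
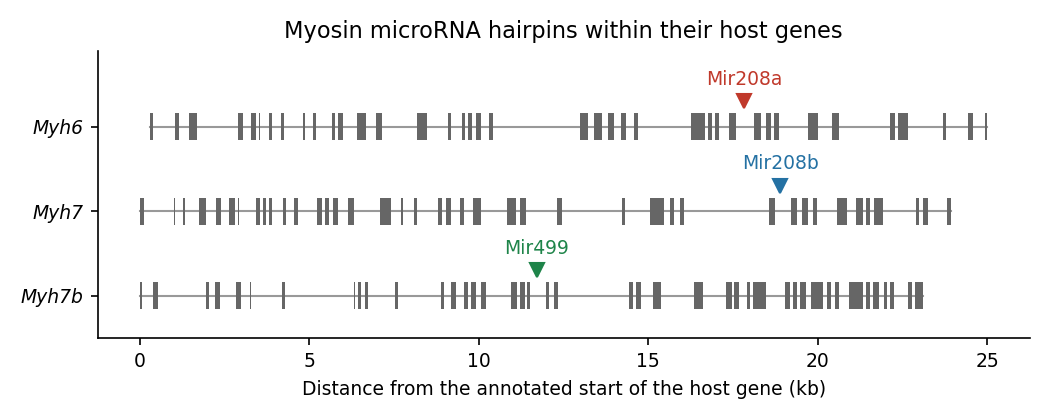
Exons (grey boxes) of the transcript that holds each hairpin, and the hairpin (coloured triangle), by distance from the annotated start of the host gene in kb. Mir208a and Mir208b lie at like distances, 17785 and 18850 bases from the start, and Mir499 at 11668 bases.

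Of the 2202 genes, 321 were detected at a CPM of 2 or more in both libraries. CPM is the count of a gene per 1000000 sense microRNA reads. The libraries held 1157420 and 1193393 sense reads in microRNA genes, out of 6119818 and 6632802 reads in all. The level that a count of 0 allows, 3 reads of the total, was 2.59 CPM for replicate 1 and 2.51 CPM for replicate 2. Skeletal muscle markers held 3.82% and 3.67% of the sense reads in replicates 1 and 2, with Mir206, the skeletal muscle microRNA, at 32940 CPM on average. Of the markers of other cell types, endothelial Mir126a held 8.08% and 13.8%, the smooth muscle pair 5.08% and 4.21%, and 4 leukocyte genes 0.318% and 0.225%. The erythroid pair held 0.0163% and 0.0153% and 8 nerve genes 0.0336% and 0.0466%, with 5 of the 8 nerve genes at 0. The Mir124a genes were among those at 0, and most of the nerve reads were of Mir128-1. Liver Mir122 had 12 and 13 reads. In a bulk tissue, fewer cells of a type and less RNA per cell cannot be told apart.

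All 3 members were detected, in the order Mir499, Mir208b and Mir208a. Mir499 had 441 reads in replicate 1 and 555 in replicate 2, which is 381 and 465 CPM. Their exact Clopper-Pearson 95% intervals ran from 346 to 418 CPM and from 427 to 505 CPM. The intervals of the libraries did not overlap, and replicate 2 was the higher. The mean level was 423 ± 59.4 CPM (SD, n = 2), the 79th of the detected genes in order of abundance, so that 24.3% of them were more abundant.

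Mir208b had 120 and 170 reads in replicates 1 and 2, or 104 CPM (86.0 to 124) and 142 CPM (122 to 166). Replicate 2 was again the higher, with intervals that touched between 122 and 124 CPM. Its mean level was 123 ± 27.4 CPM (SD, n = 2), with 38.0% of the detected genes above it.

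Mir208a had 13 and 22 reads, or 11.2 CPM (5.98 to 19.2) and 18.4 CPM (11.6 to 27.9). These intervals overlapped widely and both lay above the level that a count of 0 allows. The mean level was 14.8 ± 5.09 CPM (SD, n = 2), and 71.7% of the detected genes were more abundant. The heart microRNA was thus counted in both muscle libraries at a level that rests on 35 reads in all. Mir122, named above as a marker of liver, had a similar number of reads. The source of the Mir208a reads was not tested.

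The 3 levels did not overlap in either library: the interval of Mir499 lay above that of Mir208b, and that of Mir208b above that of Mir208a. On the strand opposite to the members no read was counted in either library, which allows up to 3 reads per gene and library. The count of both strands together was therefore the same as the sense count for each member. All intervals and limits cover the counting error of reads alone. Amplified reads were not collapsed to single molecules, so the intervals may be too narrow for counts of molecules.

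**Figure D2:**
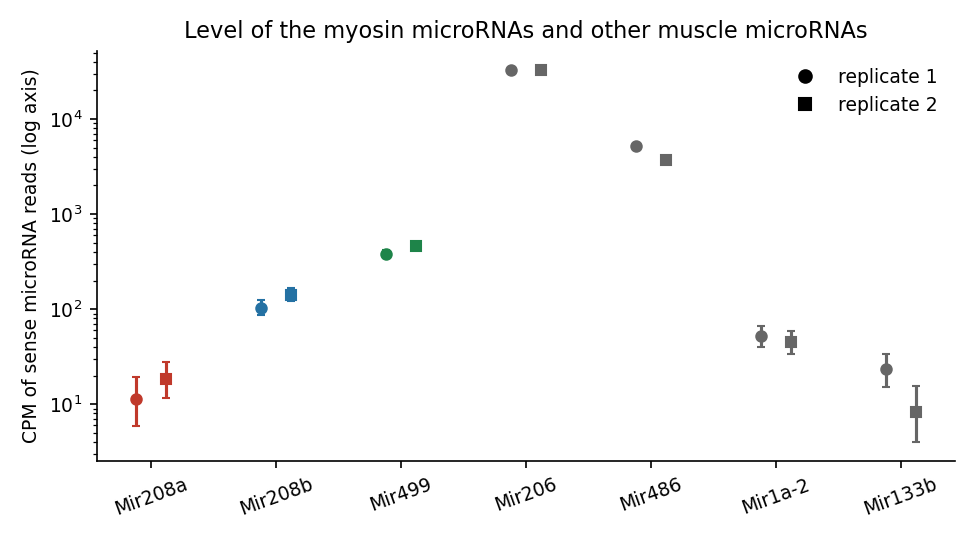
CPM of sense microRNA reads (log axis) for the 3 members and 4 other striated muscle microRNAs, with circles for replicate 1, squares for replicate 2 and bars for the exact 95% interval of counting error. The members step down from 423 CPM for Mir499 to 123 for Mir208b and 14.8 for Mir208a on average, all well below Mir206 at 32940.

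The ratio of the slow myosin microRNAs to the heart microRNA was taken within each library, where it needs no library size. The main mature arms differ by 1 base in length at most and all arms lie between 21 and 23 bases, so no correction for length was made, and the ratios are of reads and not of molecules. Mir208b reads were 9.23 times those of Mir208a in replicate 1 (exact conditional 95% interval 5.20 to 17.8) and 7.73 times in replicate 2 (4.94 to 12.7). Mir499 reads were 33.9 times those of Mir208a in replicate 1 (19.6 to 64.2) and 25.2 times in replicate 2 (16.5 to 40.6). Both slow members thus exceeded the heart member in both libraries, with intervals far from equality.

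Together, Mir208b and Mir499 had 561 reads against 13 for Mir208a in replicate 1, a ratio of 43.2 (25.0 to 81.6). In replicate 2 they had 725 reads against 22, a ratio of 33.0 (21.6 to 52.9). The mean log2 ratio was 5.24 ± 0.28 (SD, n = 2). Between the libraries this ratio changed by a factor of 0.764, replicate 2 over replicate 1, with a conditional 95% interval of 0.350 to 1.60. The interval includes no change, and at this depth any factor between its limits remains possible.

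Mir499, from the Myh7b transcript, exceeded Mir208b, from the Myh7 transcript. Its reads were 3.68 times those of Mir208b in replicate 1 (3.0 to 4.54) and 3.26 times in replicate 2 (2.74 to 3.90). The mean log2 ratio was 1.79 ± 0.12 (SD, n = 2), with a factor between the libraries of 0.888 (0.675 to 1.17), the narrowest interval of the ratios between members.

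Among the reads of the 3 members, Mir499 made up 76.8% in replicate 1 (Clopper-Pearson 73.2 to 80.2) and 74.3% in replicate 2 (71.0 to 77.4). Mir208b made up 20.9% (17.6 to 24.5) and 22.8% (19.8 to 25.9), and Mir208a 2.26% (1.21 to 3.84) and 2.95% (1.85 to 4.43). For each member the intervals of the libraries overlapped, so that a difference in the make-up of the trio was not detectable at this depth.

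**Figure D3:**
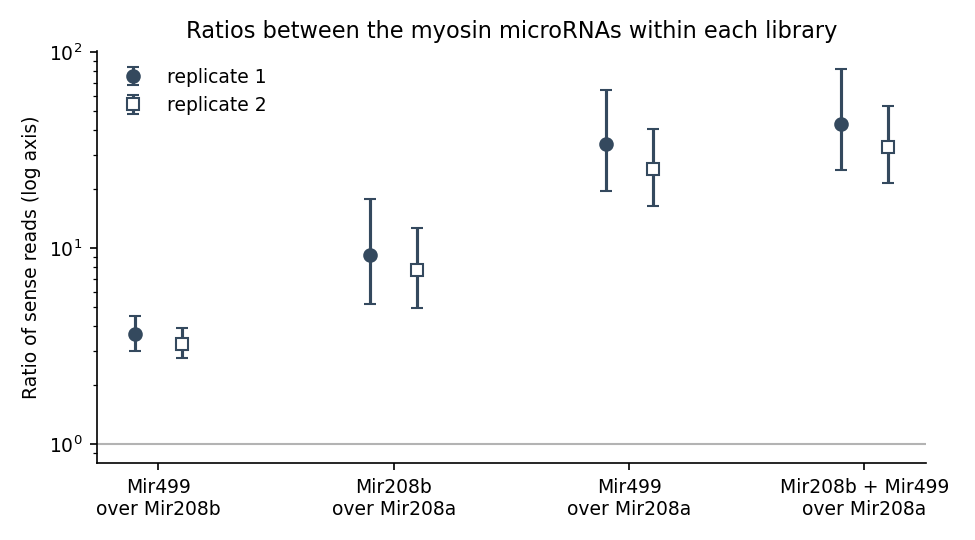
Ratio of sense reads between members within each library (log axis), with filled circles for replicate 1, open squares for replicate 2 and bars for the exact conditional 95% interval. All 8 points lie above 1 (grey line), from 3.26 for Mir499 over Mir208b to 43.2 for both slow members over Mir208a.

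The members were a small part of all sense microRNA reads of this tissue. They held 574 and 747 reads in replicates 1 and 2, which is 0.0496% and 0.0626% of the sense reads, or 561 ± 91.9 CPM (SD, n = 2). For each read of the trio there were 66.4 reads of Mir206 in replicate 1 (61.2 to 72.3) and 52.6 in replicate 2 (48.9 to 56.6). By member, there were 86.5 and 70.8 reads of Mir206 for each read of Mir499, and 318 and 231 for each read of Mir208b. For each read of Mir208a there were 2933 and 1786.

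Mir206 had nearly the same share of the sense reads in both libraries, 3.29% in each. Relative to Mir206, Mir499 was 1.22-fold higher in replicate 2 (conditional 95% interval 1.07 to 1.39) and Mir208b 1.37-fold (1.08 to 1.75). Mir208a was 1.64-fold higher with an interval of 0.791 to 3.55, which includes no change.

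The other genes known for striated muscle ranged from abundant to almost absent in these counts. Mir486, in Ank1, had 5963 and 4423 reads in replicates 1 and 2 and stood above all members. Mir1a-2, of the family that promotes muscle differentiation, had 60 and 54 reads and stood between Mir208b and Mir208a. Mir1a-1 had 14 and 9 reads and Mir133b 27 and 10, near the level of Mir208a. Mir133a-1 had 24 and 6 reads, Mir133a-2 had 5 and 0, and Mir1b had 1 in each library, and these last 2 genes did not count as detected. These genes have 20 or more bases in common with a second microRNA gene, and Mir206 alone of the 8 does not, so their levels may be undercounted and their order against the members is uncertain. Reads aligned to several places were 60.2% and 63.2% of the libraries.

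**Figure D4:**
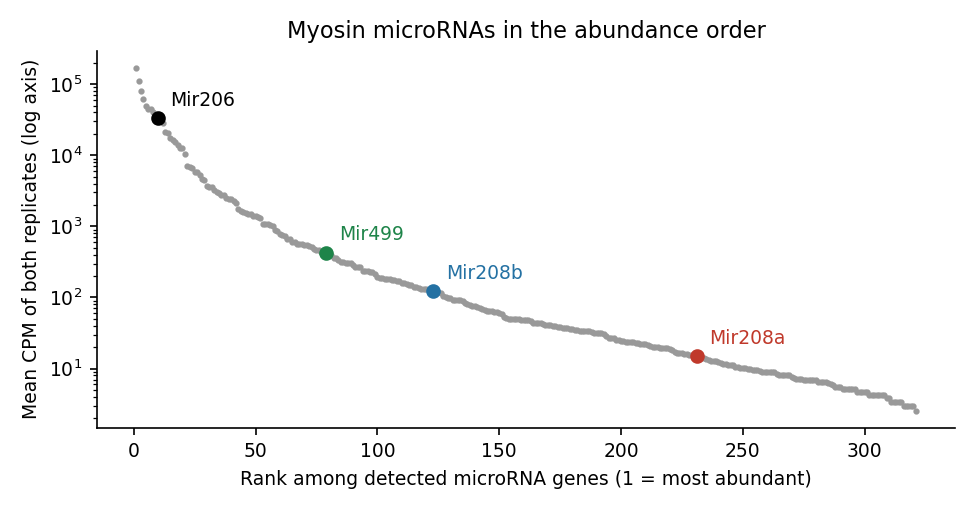
Mean CPM of both replicates (log axis) of the 321 detected microRNA genes in order of abundance (grey points), with the members and Mir206 marked. Mir206 stands 10th, Mir499 79th, Mir208b 123rd and Mir208a 231st.

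The genes nearest to each member in level were found by the distance of log2 CPM over the 2 libraries, which is a likeness over 2 points only. The 3 nearest to Mir499 were Mir379 with 491 and 463 reads, Mir20a with 388 and 453, and Mir128-1 with 341 and 501. For Mir208b they were Mir467d, Mir700 and Mir378d, with distances of 0.30 to 0.34. Mir540 was nearest to Mir208a, with 14 and 25 reads, followed by Mir18 with 16 and 23 and Mir1934 with 17 and 19. None of these 9 genes belongs to the list of striated muscle genes.

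For the difference between the libraries, each gene was put to an exact binomial test, two-sided and conditional on its total, on TMM-scaled library sizes, adjusted by Benjamini-Hochberg over the 321 detected genes. The test asks whether 2 libraries differ beyond counting error, and says nothing of conditions. All 3 members had more reads in replicate 2. Mir499 passed, at 1.51-fold (1.33 to 1.71, exact binomial adjusted p = 5.3e-10), and so did Mir208b, at 1.70-fold (1.34 to 2.16, exact binomial adjusted p = 3.7e-05). Mir208a did not pass, at 2.03-fold (0.978 to 4.39, exact binomial adjusted p = 0.10). The intervals of the 3 folds overlapped. Those of the changes in the ratios between members, given above, include 1, so no difference between the members' folds was detectable.

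Thus 2 of 3 members passed, and both were higher in replicate 2. Of all detected genes 37.4% passed in either direction and 18.7% were higher. Passing depends on the number of reads: Mir206 passed at 1.24-fold, and Mir208a did not at 2.03-fold. With the filter of 10 CPM, 110 of 232 genes passed, 54 of them higher. Shares over genes of all levels, here and for the settings below, are therefore no matched background for Mir499 and Mir208b. Whether these 2 stand out among genes of like abundance was not tested. The median log2 ratio was 0.76 over the members, -0.27 over the 6 detected of the 8 other striated muscle genes, and -0.01 over all detected genes. Of those 6, Mir206 was higher, Mir486 and Mir133a-1 were lower, and the others did not pass. A larger change in either direction than that of Mir499 was found in 113 of the 321 detected genes, than that of Mir208b in 84 and than that of Mir208a in 53.

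**Figure D5:**
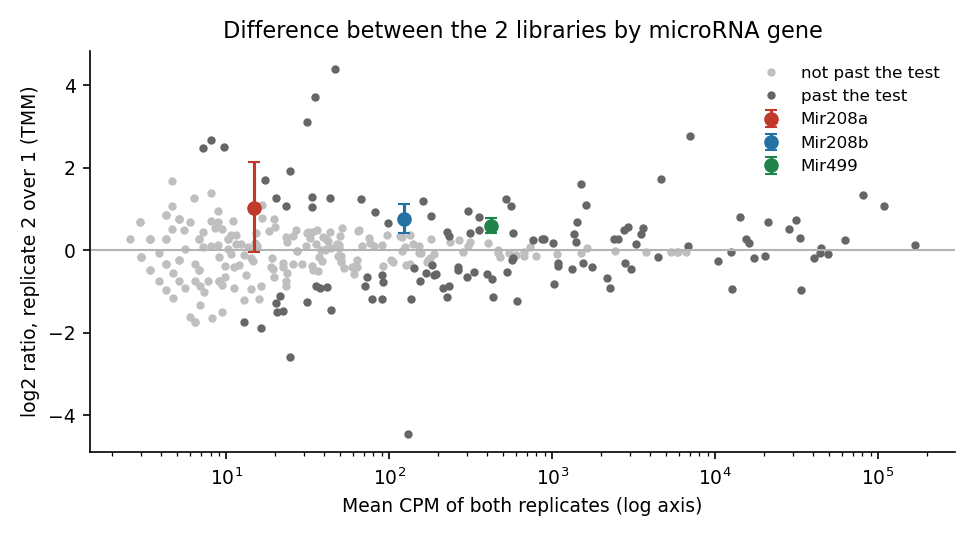
The log2 ratio of replicate 2 over replicate 1 after TMM scaling against the mean CPM (log axis) of the 321 detected genes, with dark points past the exact binomial test, and the members in colour with 95% intervals of counting error. Mir499 at 0.59 and Mir208b at 0.76 lie above 0, and the interval of Mir208a, at 1.02, includes 0.

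The scaling and the spread allowed for between the libraries both bore on these results. With total counts only, the median log2 ratio of the detected genes moved by -0.31, and Mir499 was 1.22-fold (exact binomial adjusted p = 0.0051) and Mir208b 1.37-fold higher (exact binomial adjusted p = 0.019), where 10.9% of the detected genes were higher. Relative to the median of the detected genes, which no scaling of the libraries can alter, the log2 ratios were 0.61 for Mir499, 0.78 for Mir208b and 1.03 for Mir208a. With a dispersion of 0.01 added to counting error, Mir208b passed the edgeR exact test (adjusted p = 0.033) and Mir499 missed the threshold (adjusted p = 0.0504), where 9.03% of the detected genes were higher. At the common dispersion that edgeR estimated from the 2 libraries as replicates of 1 group, a coefficient of variation of 33.8%, no member passed the exact test. The unadjusted p was 0.29 for Mir208a, 0.29 for Mir208b and 0.40 for Mir499, none under 0.05, and 1.25% of the detected genes were higher.

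Endothelial Mir126a was 1.70 times as large a share of the sense reads in replicate 2 as in replicate 1. The same factor was 0.961 for the summed skeletal muscle markers, 0.830 for smooth muscle, 0.708 for leukocytes and 0.934 for the erythroid pair. The erythroid sum joins opposite changes from replicate 1 to 2. Mir144 went from 7.78 to 54.5 CPM and Mir451a from 156 to 98.0 CPM. Among the leukocyte genes, Mir142 went from 60.5 to 67.9 CPM, and Mir150, Mir155 and Mir223 fell. The factor was 1.39 for the nerve genes and 1.05 for liver Mir122. Of the nerve reads, Mir128-1 alone held 341 of 389 in replicate 1 and 501 of 556 in replicate 2. These shares are not TMM-scaled, and after TMM scaling Mir206 was 1.24-fold higher in replicate 2. The part of these marker differences in the members' ratios was not tested.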

How the data were processed

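Small RNA under 30 bases was sequenced from 2 gastrocnemius libraries of 1 group. The authors deposited raw counts, whole numbers of reads for each microRNA gene, in 3 columns without names. From their layout, these columns were taken to ignore strand, follow the gene's strand and take the opposite one. The text deposited with the counts names mm10 and GENCODE M21. The sources used here do not give the aligner. The 4 leading lines of totals, in the layout of STAR gene counts, were kept out of the library sizes. The second count column was used as the sense column, and all 2202 identifiers were found in GENCODE M21. Positions and hairpins came from GENCODE M21, mature sequences from RefSeq.

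CPM values were computed over sense reads in microRNA genes. Intervals are exact 95% Clopper-Pearson intervals, of a share or of the share that gives a ratio. The interval of a change in a ratio between libraries is that of the conditional odds ratio. Detected genes, at 2 CPM or more in both libraries, were compared with the exact conditional binomial test and Benjamini-Hochberg adjustment at 0.05, with TMM factors of 1.11 and 0.899. The quasi-likelihood test of edgeR needs residual degrees of freedom, which 1 library on each side does not give. The binomial comparison was run on simulated counts that varied by counting error alone, with total counts as library sizes. That simulation does not cover a wider spread between libraries, the TMM scaling or the edgeR tests. The tools were edgeR 4.0.16 and DESeq2 1.42.0 in R 4.3.3, and numpy 2.4.6, pandas 2.3.3, scipy 1.17.1 and matplotlib 3.10.9 in Python 3.11.15.

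The members and lists were chosen with earlier results of these data known. Genes named are the members, 8 other striated muscle genes, the 3 detected genes nearest in level to each member, genes sharing a main seed with a member, and cell type markers. A listed leukocyte marker, Mir142hg, was not found by that name. Alternatives were the column of both strands, other denominators and scalings, other filters, added reads, summed libraries, 2 dispersions and leaving out each replicate.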

Additional observations from a re-analysis of the deposited data

How the results depend on the processing

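The 8 ratios between members or over Mir206 kept their direction, and moved by less than the spread between replicates, when 0.5 reads were added. The column of both strands holds the same reads for these genes. Summing the libraries or leaving out 1 of 2 replicates must give a ratio within the SD of the replicates. None of these other settings therefore bears on the stability of the ratios. The levels depend on the denominator. Over the column of both strands the mean levels of Mir208a, Mir208b and Mir499 were 21.3, 176 and 604 CPM, and over all reads of the libraries 2.72, 22.6 and 77.9 CPM. Without the most abundant gene, Mir378a, in the denominator, Mir499 held 509 CPM. Leaving out a replicate gives the value of the other, from 11.2 to 18.4 CPM for Mir208a, 104 to 142 for Mir208b and 381 to 465 for Mir499. The order of the members could not differ between these settings. Their reads were the same in each, with 1 denominator shared by the members of a library.

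The number of genes that differed between the libraries was 120 of 321 tested. With the exact test of edgeR it was 53 at a fixed dispersion of 0.01 and 5 at the common dispersion, the latter a setting chosen after seeing the data. In the 7 other settings it lay between 85, of 232 genes tested, and 153, of 321 tested. Without a filter it was 118 of 569, and with the filter of 10 CPM 110 of 232. All 3 members were higher in replicate 2 in every setting run. The calls of Mir499 and Mir208b held in those 7 settings, which all use the exact binomial test and so allow for counting error alone. Mir208a passed in no setting. The comparison needs both libraries, so it could not be run without a replicate. No paired analysis was possible because there is only 1 group. With 13 and 22 reads, Mir208a limits the precision of each ratio it enters.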
